A study of Mus musculus with 6 samples.

Results

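Respiratory complex I was followed through the genes whose platform annotation symbol starts with Nduf. A gene was a member if at least 1 of its probes had a detection p-value under 0.05 on at least 3 of the 6 arrays. The annotation held 44 Nduf symbols on 68 probes, and 42 of these genes met the rule, of 9978 genes tested in all. The brightest kept probe stood for each gene. For all 42 members that probe was above background on all 6 arrays, so no member passed through 1 genotype alone. The 2 symbols left out, the core subunit gene Ndufs1 and the assembly gene Ndufaf6, were represented by a single probe that stayed at background on all 6 arrays, so their levels are not known here. By role, 33 members encode structural subunits and 7 encode assembly factors. The other 2 are Ndufa4, now placed in complex IV, and Ndufs5-ps, a pseudogene. Whether its probe also reads the parent gene is not known here.

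The tissue was tibialis anterior, a mainly fast-twitch hindlimb muscle, from male mice aged 3 months. There were 3 wild-type arrays and 3 arrays with the genotype label PGC1b transgenic, each from total RNA on a 1-colour Illumina Mouse WG-6 v2 array. PGC-1β, encoded by Ppargc1b, is a transcriptional coactivator known to raise genes of mitochondrial respiration. The promoter of the transgene, its founder line and any pooling of animals are not given in the labels. Nothing in the labels states that the arrays came from different animals. The p-values therefore cover only array-to-array spread, which could be technical.

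Complex I is the entry point of electrons from NADH into the respiratory chain. Its matrix arm takes electrons from NADH onto a flavin and passes them along iron-sulfur clusters to ubiquinone, and its membrane arm pumps protons. Core subunits do this work, accessory subunits surround and stabilise them, and assembly factors help to build the complex without staying in it. Both the nuclear and the mitochondrial genome encode subunits, and oxidative muscle fibres are rich in the complex.

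The label was read first from Ppargc1b itself, which went against it. Its 1 probe gave unnormalized signals of 497.2, 648.7 and 708.9 in wild type. The arrays labelled transgenic gave 281.3, 373.4 and 309.8. The change on the log2 scale was -1.32 (SE 0.21, adjusted p = 0.000734). Which part of the mRNA the probe reads, and whether the transgene holds it, is not known here, so every direction below rests on the label alone. Levels of single genes below are background-corrected, quantile-normalized log2 signals unless named as unnormalized. Summed levels of markers are sums of those signals taken back to the linear scale, and a change is labelled transgenic minus wild type. "Rose" and "fell" mean an adjusted p under 0.05 in limma, adjusted over all 9978 genes.

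Over the series 15338 to 15691 probes were above background on the wild-type arrays and 17525 to 17604 on the others. All 10 skeletal muscle markers listed were measured, of which 1 rose and 5 fell, with a summed level of 211549 to 218684 in wild type and 153559 to 157972 on the arrays labelled transgenic. Among them Myh4, Actn3 and Ttn had log2 changes of -3.91, -3.61 and -0.99 from wild-type means of 13.78, 14.68 and 14.58. Most of the drop in the summed level came from them, so the sum does not describe the listed markers evenly. Ckm and Tnnt3 fell with changes of -0.29 and -0.33, and Des rose by 0.71. Acta1, Pvalb, Tnni2 and Mb had changes of -0.04 to -0.16 that did not pass. A second kept Mb probe, with a mean log2 signal of 13.5, had a change of -0.67 that passed (adjusted p = 0.00356 over the probes kept). Of 15 macrophage markers 12 were measured and all 12 rose, with a summed level of 3381 to 3863 against 19171 to 32898.5. Cd68, Itgam and Ptprc were not among the genes tested. Of 10 fibroblast and matrix markers measured, from 11 listed, 9 rose, with a summed level of 14782 to 15393 against 26136.5 to 32589.5. Of 6 endothelial markers 0 rose and 2 fell. Of 4 adipocyte markers 1, Adipoq, was measured and rose. These levels moved with the genotype label, as the Nduf values below do, and their part in the Nduf values was not tested. In whole muscle, fewer cells of a type and less RNA per cell cannot be told apart.

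The change was above 0 in 31 of the 42 Nduf genes, mostly by small amounts, and this balance turned over when the arrays were scaled in another way. Of the 42 members 16 rose, 2 fell and 24 did not pass. Over all genes tested 28.1% rose and 28.2% fell, 56.3% in all, against 38.1%, 4.76% and 42.9% of the members. The median change was 0.24 for structural subunits and 0.37 for assembly factors, beside -0.03 for all genes tested. The called changes ranged from 1.26-fold to 1.72-fold. None of the 42 members changed by 2-fold or more, while 17.3% of all genes tested did. In 27 members the groups did not overlap, 23 of them higher and 4 lower. Over all genes tested 63.8% did not overlap, 31.5% higher and 32.3% lower. When probes detected on all arrays set the scale of each array by their median, 8 members rose and 9 fell, and the structural median became -0.14. Of all 9978 genes 2722 rose and 2959 fell under that scaling. Without transgenic replicate 3, which gave the highest signal in 24 of the 42 members, 10 members rose and 1 fell, beside 2651 and 2688 of all 9978 genes.

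**Figure D1:**
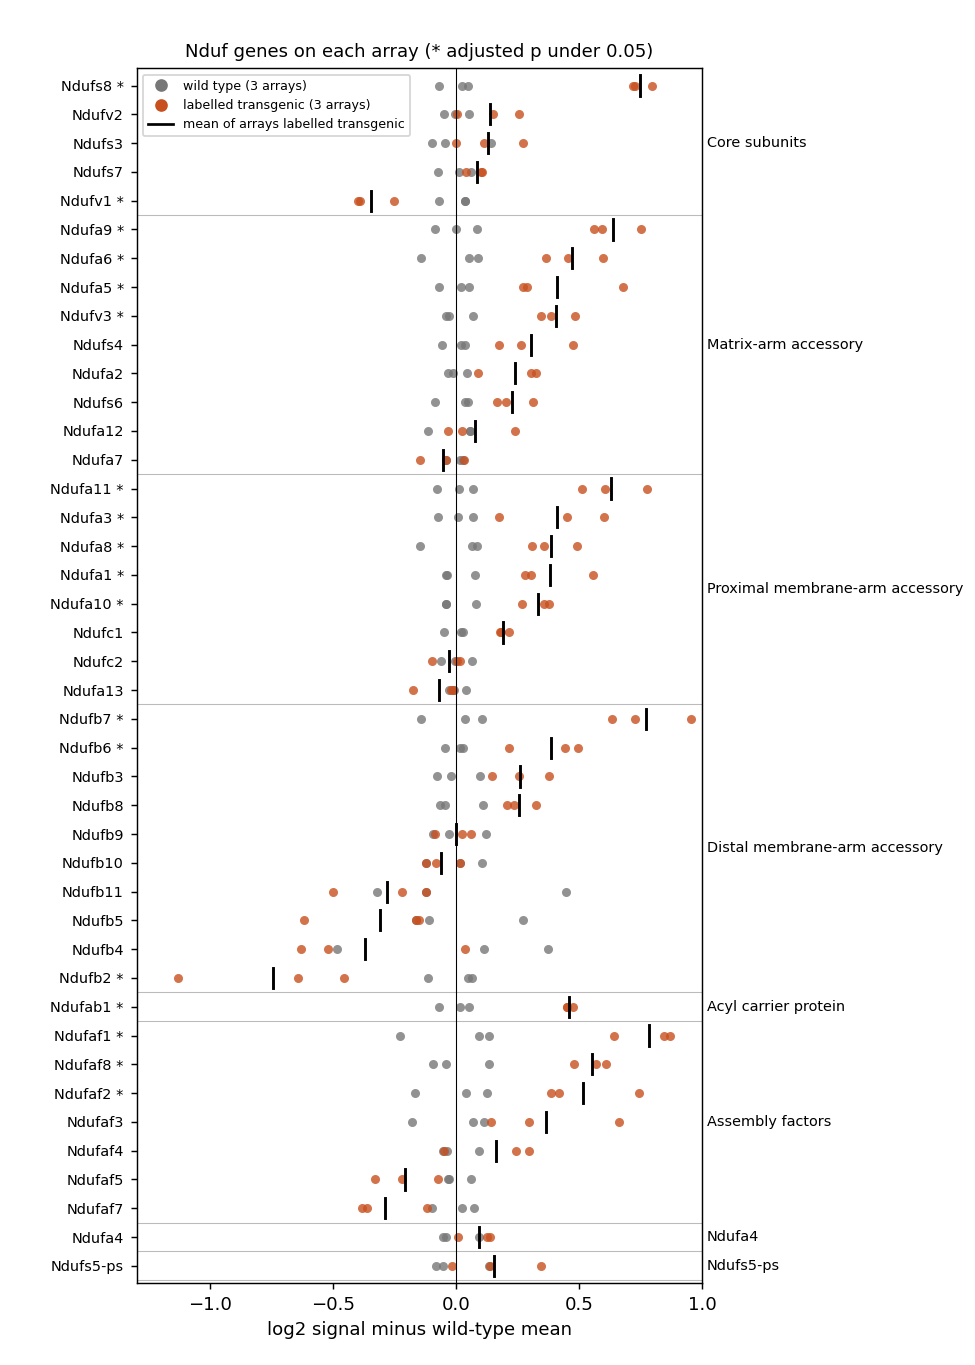
Log2 signal of each of the 42 Nduf genes on each of the 6 arrays, minus the gene's wild-type mean, in blocks by role. Grey points are the 3 wild-type arrays, orange points the 3 arrays labelled transgenic and black bars their mean, and an asterisk marks an adjusted p under 0.05. Most orange points lie to the right of the grey ones by under 0.8. In Ndufv1, Ndufb2, Ndufaf5 and Ndufaf7 all 3 lie to the left of the grey ones.

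Of the 5 core subunits measured, which carry the catalytic machinery, 1 rose (20%), 1 fell (20%) and 3 did not pass. Over all genes tested 28.1% rose and 28.2% fell. Ndufs8 encodes an iron-sulfur subunit of the matrix arm that passes electrons on towards ubiquinone. Its log2 signals were 12.81, 12.79 and 12.70 on wild-type arrays against 13.49, 13.49 and 13.56 on those labelled transgenic. The groups lay far apart relative to their spread, and Ndufs8 rose by 0.75 (SE 0.10, adjusted p = 0.000335).

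Ndufv1 encodes the flavin-bearing subunit that binds NADH. It gave log2 signals of 13.72, 13.72 and 13.61 on wild-type arrays against 13.43, 13.29 and 13.28 on those labelled transgenic. All 3 of the latter were lower, and Ndufv1 fell by 0.35 on the log2 scale (SE 0.11, adjusted p = 0.021). It did not pass without wild-type replicate 1 or 2 or without transgenic replicate 2 or 3, with adjusted p up to 0.0657. Its unnormalized signals were 14365.9, 13644.7 and 13002.7 against 11212.6, 10233.2 and 9528.9, also without overlap.

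Ndufv2, the partner of Ndufv1 with an iron-sulfur cluster, gave 13.61, 13.55 and 13.50 against 13.55, 13.70 and 13.81, a change of 0.14 with a 95% interval of -0.12 to 0.39. For Ndufs3, a subunit near the ubiquinone end, log2 signals of 12.79, 12.98 and 12.74 stood against 12.84, 13.11 and 12.95, a change of 0.13 (interval -0.15 to 0.41). Ndufs7, which holds the last cluster before ubiquinone, gave 13.79, 13.88 and 13.93 against 13.97, 13.91 and 13.98, a change of 0.08 (interval -0.15 to 0.32). In all 3 of these genes the groups overlapped.

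Of 9 accessory subunits of the matrix arm measured, 4 rose (44.4%, beside 28.1% of all genes tested), 0 fell and 5 did not pass. In 7 of the 9 the groups did not overlap, all higher, beside 31.5% of all genes tested. With scaling to the detected probes Ndufa9 kept its call among the 4, Ndufa7 passed as a fall with a change of -0.33, and Ndufs4, Ndufa2, Ndufs6 and Ndufa12 had changes of -0.007, -0.14, -0.19 and -0.22 that did not pass. Ndufa9 encodes a subunit related to short-chain dehydrogenases that sits where the arms join. Its log2 signals were 13.29, 13.38 and 13.21 on wild-type arrays against 14.05, 13.86 and 13.89 on those labelled transgenic, a rise of 0.64 (SE 0.11, adjusted p = 0.00131). The groups were separated by more than the range within either of them.

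Ndufa6, an LYR-motif protein that docks an acyl carrier protein on the arm, gave 13.47, 13.66 and 13.70 against 14.21, 13.98 and 14.07, a rise of 0.47 (adjusted p = 0.0087). Ndufa5, with signals of 13.57, 13.66 and 13.69 against 13.91, 13.93 and 14.32, rose by 0.41 (adjusted p = 0.0291), its highest value being on transgenic replicate 3. Ndufv3, a small subunit beside the NADH-binding pair, also rose by 0.41 (adjusted p = 0.00978). Ndufs4, whose loss in mice gives a Leigh-like brain disease, narrowly missed with a change of 0.30 (adjusted p = 0.0514). All 4 of its kept probes, read on the same arrays, were higher without overlap, by 0.30 to 0.45. Of them only the probe with the change of 0.45 passed (adjusted p = 0.0259 over the probes kept). Over all genes tested 31.5% were higher without overlap. The remaining changes in this arm were 0.24 for Ndufa2, 0.23 for Ndufs6, 0.08 for Ndufa12 and -0.05 for Ndufa7.

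Near the hinge of the membrane arm 5 of 8 accessory genes rose (62.5%, beside 28.1% of all genes tested) and 0 fell (beside 28.2%). With scaling to the detected probes 1 of the 5, Ndufa11, kept its call, and Ndufa13 and Ndufc2 passed as falls with changes of -0.48 and -0.31. Ndufa11, a membrane-embedded subunit, gave log2 signals of 12.41, 12.56 and 12.50 on wild-type arrays against 13.00, 13.09 and 13.26 on those labelled transgenic. The lowest of the latter was above the highest wild-type value, and Ndufa11 rose by 0.63 (SE 0.11, adjusted p = 0.00163). Ndufa3 rose by 0.41 and Ndufa8, a cysteine-rich subunit of the intermembrane space, by 0.38. Ndufa1 and Ndufa10 rose by 0.38 and 0.33. For these 4 genes adjusted p lay between 0.0202 and 0.0275. The dimmer Ndufa8 probe had a change of 0.30 that did not pass. Ndufc1, Ndufc2 and Ndufa13, the last also known as the cell death regulator GRIM-19, had changes of 0.19, -0.03 and -0.07. A dimmer Ndufc1 probe had a change of -0.05, the only one of 15 genes with several kept probes whose probes differed in sign.

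The distal end of the membrane arm was mixed. Of 10 accessory genes measured there 2 rose, 1 fell and 7 did not pass, where 28.1% of all genes tested rose and 28.2% fell, and the median change was -0.03. Of these genes only Ndufb3, Ndufb6 and Ndufb8 had a mean log2 signal of at least 12, with changes of 0.26, 0.38 and 0.26. All accessory genes measured in the matrix arm and near the hinge were at least that bright. The part of probe brightness in the mixed changes was not tested. Ndufb7, a twin-cysteine protein on the intermembrane face, had log2 signals of 10.34, 10.59 and 10.52 on wild-type arrays against 11.21, 11.12 and 11.44 on those labelled transgenic. No value overlapped, and Ndufb7 rose by 0.77 (SE 0.13, adjusted p = 0.000979).

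Ndufb2, a small single-span membrane subunit, moved the other way. Its log2 signals were 10.06, 10.04 and 9.88 on wild-type arrays against 8.86, 9.35 and 9.54 on those labelled transgenic. Transgenic replicate 1 lay lowest, and with the groups apart Ndufb2 fell by 0.74 on the log2 scale (SE 0.17, adjusted p = 0.00603), the largest fall among the members. A second Ndufb2 probe was not above background on any array.

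Ndufb6 rose by 0.38 (adjusted p = 0.0195), while its dimmer probe had a change of 0.23 that did not pass. A dimmer Ndufb8 probe rose by 0.51 (adjusted p = 0.0184 over the 17166 probes kept, of which 53.4% passed, 25.5% higher), while the brighter one had a change of 0.26 that did not pass. A change of 0.26 for Ndufb3 did not pass, nor did those of -0.31 for Ndufb5 and -0.37 for Ndufb4, in both of which the groups overlapped. Ndufb9, Ndufb10 and Ndufb11 had changes of 0.00, -0.06 and -0.28. Ndufab1, the mitochondrial acyl carrier protein found in both arms and also needed for lipoate synthesis, rose by 0.46 (SE 0.10, adjusted p = 0.00439). Its signals were 13.83, 13.79 and 13.70 against 14.23, 14.23 and 14.25, and its 4 kept probes were all higher, by 0.38 to 0.60. Ndufa4 had a change of 0.09 (adjusted p = 0.492) and Ndufs5-ps of 0.16 (adjusted p = 0.335).

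Among the assembly factors 3 of 7 rose (42.9%, beside 28.1% of all genes tested) and 0 fell. Ndufaf1 had the largest rise of all 42 members. It encodes a chaperone of the membrane arm that works with Ecsit, Acad9 and Tmem126b. Its log2 signals were 10.74, 10.78 and 10.42 on wild-type arrays against 11.29, 11.49 and 11.51 on those labelled transgenic. The groups did not overlap, and Ndufaf1 rose by 0.79 (SE 0.13, adjusted p = 0.00118), or 1.72-fold.

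Ndufaf8, known in human cells to stabilise NDUFAF5, gave 9.15, 9.21 and 9.38 against 9.86, 9.73 and 9.82, a rise of 0.55 (SE 0.11, adjusted p = 0.00289). NDUFAF5 itself is known to hydroxylate the core subunit NDUFS7, and Ndufaf5 went the other way, with log2 signals of 10.03, 10.12 and 10.03 against 9.73, 9.84 and 9.99 and a change of -0.21 that did not pass (adjusted p = 0.141). The normalized values of both genes were free of overlap between groups, in opposite directions, where 63.8% of all genes tested did not overlap. Unnormalized signals of Ndufaf5 did overlap, at 1081.3, 1089 and 1013.9 in wild type against 1037, 1044.6 and 1028.6. The difference between their changes was not tested.

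Ndufaf2, a late chaperone that resembles the accessory subunit Ndufa12, had log2 signals of 8.86, 8.77 and 8.56 on wild-type arrays against 9.11, 9.47 and 9.15 on those labelled transgenic. It rose by 0.52 (SE 0.14, adjusted p = 0.012), while Ndufa12 itself had a change of 0.08 and overlapping groups. Ndufaf3 and Ndufaf4, which act together on the ubiquinone-binding part of the matrix arm, did not pass. Ndufaf3, the dimmest of the assembly factors, gave 6.18, 5.88 and 6.13 against 6.36, 6.20 and 6.72, a change of 0.37. Ndufaf4 gave 10.17, 10.02 and 10.03 against 10.31, 10.02 and 10.37, a change of 0.16 with overlapping groups. Ndufaf7, a mitochondrial methyltransferase, gave 8.12, 8.07 and 7.95 against 7.68, 7.92 and 7.66, a change of -0.29 (adjusted p = 0.0652). Leaving out transgenic replicate 3 brought the median of the 7 assembly factors from 0.37 to 0.22.

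**Figure D2:**
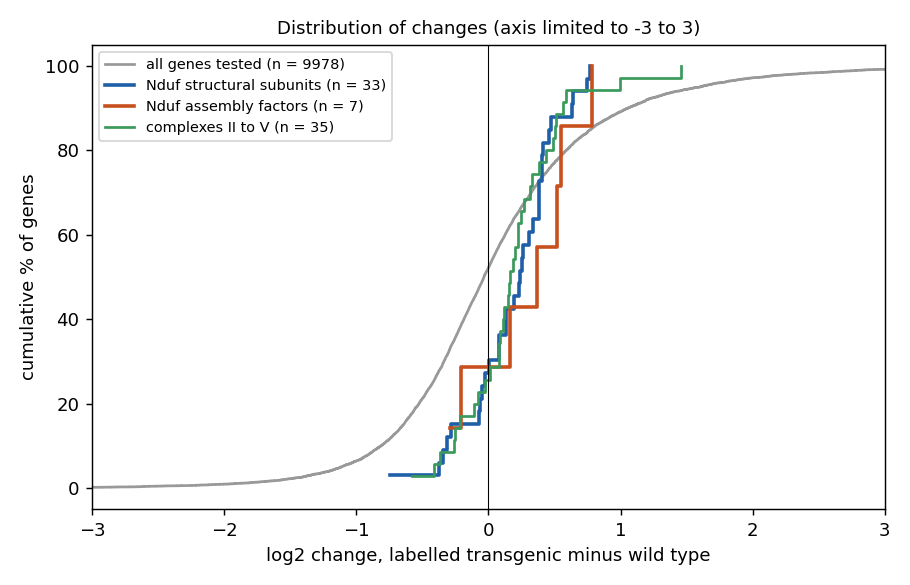
Cumulative percentage of genes by log2 change (labelled transgenic minus wild type) for the 33 structural subunits, the 7 assembly factors, 35 nuclear subunits of complexes II to V and all 9978 genes tested. Nduf genes span -0.74 to 0.79 and the other respiratory subunits -0.58 to 1.46, and the curve of all genes runs beyond these on both sides.

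The shares called in structural subunits and assembly factors stood as follows, with no test between them. Among structural subunits 13 of 33 rose (39.4%) and 2 fell (6.06%), and among assembly factors 3 of 7 rose (42.9%) and 0 fell, beside 28.1% and 28.2% of all genes tested. Of the 35 nuclear subunits of complexes II to V tested, 10 rose (28.6%) and 2 fell (5.71%), with a median change of 0.16. Most members are bright: 28 of 42 had a mean log2 signal of at least 12, among which 12 rose and 1 fell. Of the 387 genes of that brightness in the series, a level chosen after the values were seen, 54.5% were called, 28.4% as rises and 26.1% as falls. Of the 14 members under that level 4 rose and 1 fell. Their median change was -0.03, beside 0.26 for the 28 bright members.

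The scaling of the arrays set the direction of the structural subunits as a group. Quantile normalization gave them a median change of 0.24. Scaling each array to the median of all its probes gave 0.11, while the median change of all genes shifted by 0.23 to 0.19. Scaling to the detected probes gave -0.14. Relative to the median of all genes, structural subunits stood at 0.27 under quantile normalization and at -0.08 under both scalings. The scalings differ only by a shift common to all genes, so such relative values are the same in both by construction. Assembly factors stood at 0.40 under quantile normalization and at 0.50 under the scalings. Against the 387 bright genes, the bright members were higher by 0.24 under quantile normalization and by 0.25 under the scalings, again the same in both by construction.

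**Figure D3:**
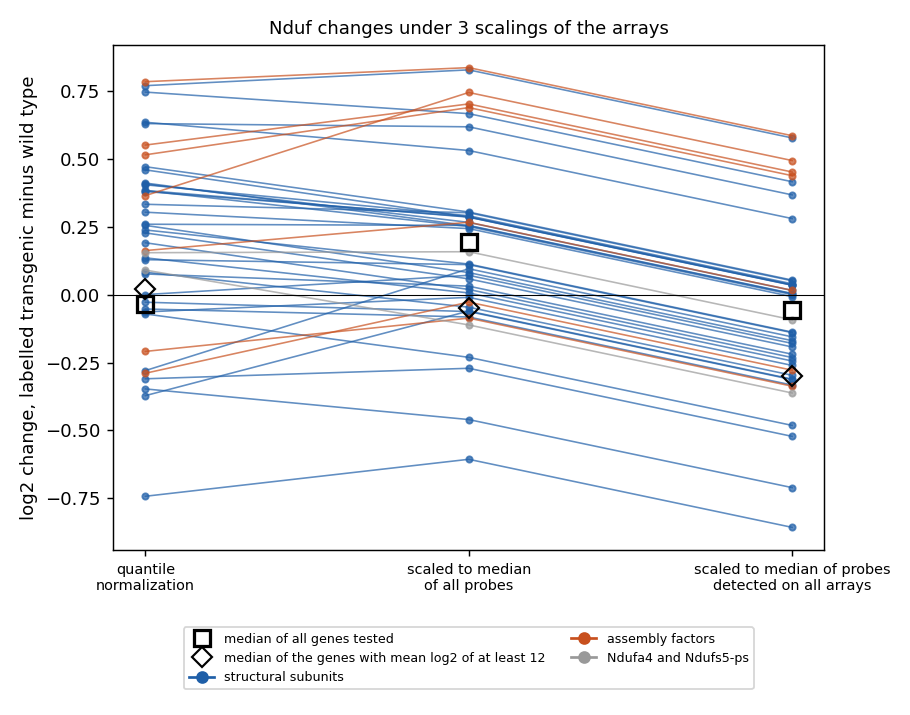
Log2 change of each Nduf gene under quantile normalization and under 2 scalings of the arrays by a single factor, with 1 line per gene. Squares mark the median change of all genes tested and diamonds that of the 387 genes with a mean log2 signal of at least 12. The structural median lies above the square under quantile normalization. It lies below the square under both scalings, by the same distance, since the scalings differ only by a shift common to all genes.

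The calls that held under all 17 alternatives were 8 of the 18: the rises of Ndufs8, Ndufa9, Ndufa11, Ndufb7, Ndufaf1, Ndufaf2 and Ndufaf8 and the fall of Ndufb2. Over those alternatives the change of Ndufs8 ranged from 0.42 to 0.77, that of Ndufaf1 from 0.59 to 0.86 and that of Ndufb2 from -0.89 to -0.55. Ndufv1 stayed negative throughout, from -0.71 to -0.32.

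Complex I genes with other names were measured beside the Nduf genes. Of 13 assembly genes measured from a list of 15, 6 rose (46.2%) and 3 fell (23.1%), beside 28.1% and 28.2% of all genes tested. Foxred1, an oxidoreductase needed to build the complex, had log2 means of 8.92 in wild type and 10.14 on the arrays labelled transgenic and rose by 1.23 (adjusted p = 4.46e-05). All 5 of its kept probes were higher, by 0.79 to 1.39. The sideroflexin gene Sfxn4 rose by 0.70, Tmem70, whose product acts in both complex V and complex I assembly, by 0.70, and Aifm1, whose product drives import of some subunits, by 0.63. A dimmer kept Aifm1 probe had a change of 0.11 that did not pass (adjusted p = 0.516 over the probes kept). Ecsit, a partner of Ndufaf1, had a log2 change of -0.54 and passed as a fall (adjusted p = 0.0108), while Tmem126b of the same assembly complex rose by 0.55 and Acad9 had a change of 0.33 (adjusted p = 0.0643). A dimmer kept Acad9 probe passed with a change of 0.41 (adjusted p = 0.0199 over the probes kept). Members of 1 assembly complex therefore had changes of both signs.

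Of the mitochondrially encoded subunits 4 were measured, each with 1 probe. ND5 alone fell, with a log2 change of -0.67 (adjusted p = 0.00223), or 25% beside 28.2% of all genes tested. ND1, ND4 and ND4L had changes of -0.16, -0.11 and 0.34 that did not pass. The ND5 and ND4L probes were dim, with wild-type log2 means of 8.53 and 8.84, beside 13.88 for ND1 and 14.48 for ND4. How well these probes read their transcripts is not known here. Among 10 genes of iron-sulfur cluster supply, on which the matrix arm depends, 5 rose and 2 fell, or 70.0% called beside 56.3% of all genes tested. Iscu, the scaffold on which clusters are built, rose from 12.93 to 14.05 (adjusted p = 3.25e-05) and Glrx5, which hands clusters on, rose by 0.93 (adjusted p = 0.00031). Iba57, a late cluster assembly factor, rose by 0.51. Nfu1, a late carrier of clusters for complex I and for lipoate synthesis, fell by 0.60 on the log2 scale but did not pass with arrays scaled to the median of all probes (adjusted p = 0.142). Of 2 flavin supply genes measured, Slc25a32, a mitochondrial carrier linked to folate and flavin, fell, with a change of -0.51 (adjusted p = 0.021), and lost the call under 6 of 17 alternatives.

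**Figure D4:**
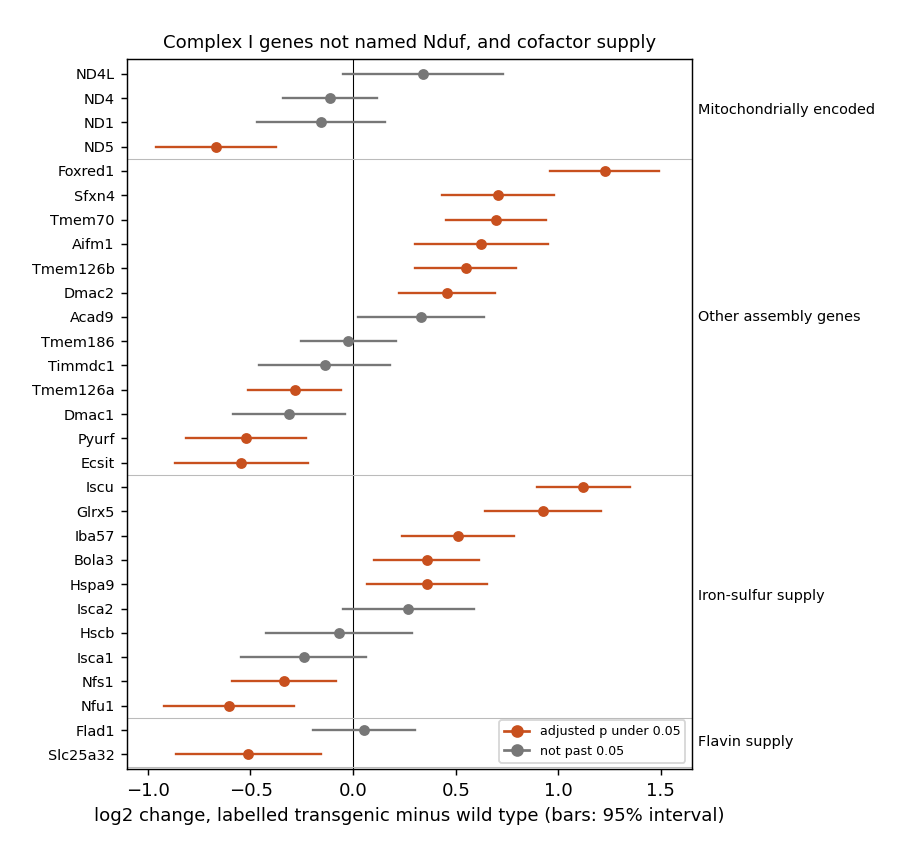
Log2 change (labelled transgenic minus wild type) with its 95% interval for complex I genes not named Nduf and for genes of iron-sulfur and flavin supply. Orange marks an adjusted p under 0.05. Foxred1 at 1.23 and Iscu at 1.12 lie farthest to the right, and ND5 at -0.67 farthest to the left.

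The start regions of the members were searched for short motifs of factors tied to respiratory genes. RefSeq promoter windows of the GRCm38.p6 build, 250 bases before to 50 after the annotated start, were matched for 39 of the 42 members. Letters were sought on both strands, with exact matches, and positions count the first base of a match from the start of the gene. The YY1 core AAGATGGC was in 20.5% of these members, beside 5.14% of all genes tested and 3.19% of all genes with a window. It lay in 8 members, each time on the gene's own strand and 10 to 38 bases after the start. The motif contains the letters ATG, and whether its matches overlap the start of the coding sequence was not tested. Among all 414 genes tested that hold it, 47.3% had it between 10 and 40 bases after the start, a range set after the members' positions were seen. Of the 8 genes, Ndufa3, Ndufa9 and Ndufaf8 rose and the other 5 did not pass. These are their 30-base stretches, shown because every match lies after the start and on the gene's strand, each cut around its match, which is in capitals:

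Ndufa3 (chr7:3617384-3617413, plus strand): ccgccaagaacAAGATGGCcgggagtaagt
Ndufa9 (chr6:126849097-126849126, minus strand): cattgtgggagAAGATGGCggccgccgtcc
Ndufaf8 (chr11:120098933-120098962, plus strand): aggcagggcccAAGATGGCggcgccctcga
Ndufb8 (chr19:44555393-44555422, minus strand): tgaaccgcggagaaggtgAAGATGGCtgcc
Ndufc1 (chr3:51408915-51408944, minus strand): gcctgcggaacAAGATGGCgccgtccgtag
Ndufs4 (chr13:114388045-114388074, minus strand): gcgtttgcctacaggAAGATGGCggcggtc
Ndufs6 (chr13:73328433-73328462, minus strand): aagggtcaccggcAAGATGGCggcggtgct
Ndufs7 (chr10:80249462-80249491, plus strand): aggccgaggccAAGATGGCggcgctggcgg

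The ETS site CCGGAAG, the core bound by GABP, was in 6 members (15.4%, beside 19.3% of all genes tested). Of those 6 genes 5 rose, and Ndufs3 had a change of 0.13 that did not pass. Among the 16 members that rose 31.2% held it, and among the other 23 members with a window 4.35% did, as a description with no test. Matches lay within 30 bases of the start except in Ndufb6, and a match on the other strand reads CTTCCGG. The first match of each gene is in capitals:

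Ndufaf1 (chr2:119662834-119662863, minus strand): cgggaccacaaCCGGAAGcgtggcgaaccg
Ndufaf8 (chr11:120098915-120098944, plus strand): cgcgttcgactCCGGAAGaggcagggccca
Ndufb6 (chr4:40279635-40279664, minus strand): tcgtccttgttCTTCCGGtcccctccccta
Ndufb7 (chr8:83566727-83566756, plus strand): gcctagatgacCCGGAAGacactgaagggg
Ndufs3 (chr2:90904730-90904759, minus strand): cccgcgtccgcCCGGAAGaagagtcactgc
Ndufs8 (chr19:3912741-3912770, minus strand): ttaggctccgcCTTCCGGttgaaccgcatc

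The NRF1 core GCGCATGC was in 5 members (12.8%, beside 5.82% of all genes tested), namely Ndufa6, Ndufa8 and Ndufa11, which rose, and Ndufaf4 and Ndufaf5, which did not pass. In Ndufa11, Ndufaf4 and Ndufaf5 matches on both strands overlapped. The element TNAAGGTCA of the estrogen-related receptors, which PGC-1 coactivators are known to bind, was in 1 member, Ndufb4 (2.56%, beside 1.02% of all genes tested). Ndufb4 had a change of -0.37 that did not pass. A match is no evidence of binding, and no match says only that the letters are not in the window.

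The 250 bases before the start are shown for the members with the largest rise and the largest fall, with matches to any of the 4 motifs in capitals. Ndufaf1 has 1 match, the ETS site, and Ndufb2 has none:

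Ndufaf1 (chr2:119662835-119663084, minus strand): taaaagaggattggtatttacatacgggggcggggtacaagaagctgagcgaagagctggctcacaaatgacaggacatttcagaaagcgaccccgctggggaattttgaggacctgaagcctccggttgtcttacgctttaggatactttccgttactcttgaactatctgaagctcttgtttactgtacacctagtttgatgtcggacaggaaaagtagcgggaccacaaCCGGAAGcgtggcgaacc
Ndufb2 (chr6:39592315-39592564, plus strand): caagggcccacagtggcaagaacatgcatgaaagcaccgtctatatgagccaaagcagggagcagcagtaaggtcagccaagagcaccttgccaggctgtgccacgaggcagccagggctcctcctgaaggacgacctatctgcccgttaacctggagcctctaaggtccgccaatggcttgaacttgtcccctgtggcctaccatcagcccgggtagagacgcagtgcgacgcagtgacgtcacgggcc

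**Figure D5:**
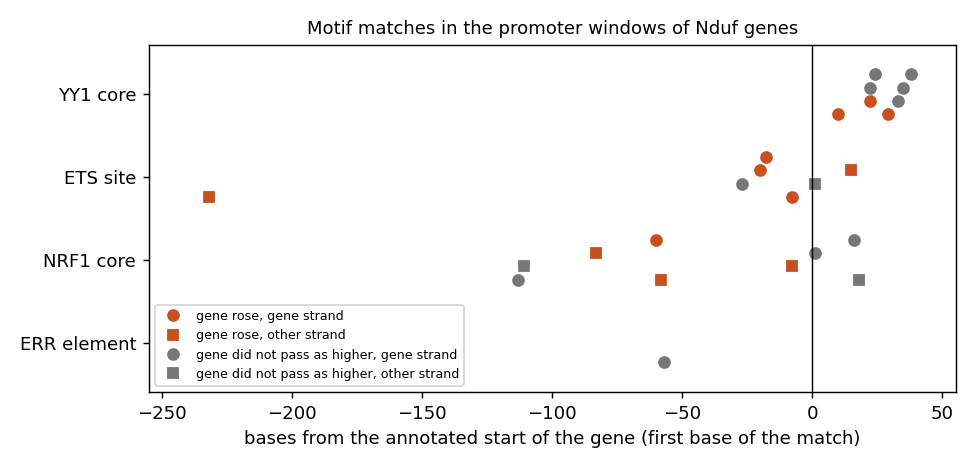
Position of each match to the 4 motifs in the promoter windows of Nduf genes, in bases from the annotated start. Orange marks genes that rose, grey the others, circles matches on the gene's strand and squares matches on the other strand. All 8 matches of the YY1 core lie after the start, 10 to 38 bases in.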

How the data were processed

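Gene expression was measured on 6 one-colour Illumina arrays, grouped by the genotype in the sample titles. Biotinylated cRNA was made from total RNA by T7 amplification, per the labels' protocols. GenomeStudio is named in the submitters' processing notes. Per the file headers, the deposited table pairs each of 45281 probes with an intensity and its detection p-value. Array medians of 73.3 to 78.8 and maxima that differ show no scaling. A second deposited table holds intensity values with a common minimum of -22.6 and a common maximum of 30836.5, as after background subtraction and quantile normalization. It served as an alternative.

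For background, normexp took its negative-control parameters from detection p-values (offset 16), and signals were then quantile-normalized and put on the log2 scale (neqc, limma 3.58.1, R 4.3.3). The detection rule given for members was applied to all probes (17166 kept), and the brightest kept probe stood for a gene, which gave 9978 genes. Symbols came from the platform annotation, with a single symbol on 34885 probes, more than 1 on 18 and no symbol on 10378. Genotypes were compared with lmFit and eBayes, two-sided, with Benjamini-Hochberg adjustment over all genes. This was tested on simulated data. The number of arrays limits the precision. The offset compresses changes of dim probes. Same-numbered arrays did not deviate together (correlations of -0.05, 0.03 and -0.002 across genes), so numbers were not treated as pairs.

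The members and lists were chosen with earlier results of these data known. Genes were named by rule: Ppargc1b, the core subunits, assembly factors, Ndufa4, all Nduf falls, the 10 largest Nduf rises, and up to 4 called genes with the largest change per further list. Other genes were named after their values were seen.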

Additional observations from a re-analysis of the deposited data

How the results depend on the processing

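Of the 17 alternatives, the authors' value table, no filter on dim probes, array weights and the replicate block all gave 16 members higher and 2 lower, the same genes. With the replicate number as a block, 5337 genes were called over all genes tested against 5613 without it. The total called over all genes ranged from 4868 to 5737 over the 17 alternatives. Scaling each array to the median of all probes gave 9 members higher and medians of 0.11 for structural subunits and 0.69 for assembly factors, and over all genes 3772 were higher and 1607 lower, against 2801 and 2812. Scaling to probes detected on all arrays gave 8 higher and 9 lower, and over all genes 2722 higher and 2959 lower. That scaling turned the structural median to -0.14, Ndufa4 to -0.36 (adjusted p = 0.0247) and Ndufs7 to -0.30 (adjusted p = 0.0488). The cause was not tested. The assembly median was 0.19 without background correction and 0.25 with an offset of 50, both of which compress dim probes by construction. Leaving out 1 array at a time gave 10 to 17 members higher, 1 to 3 lower, structural medians of 0.20 to 0.26 and assembly medians of 0.22 to 0.42, each lowest without transgenic replicate 3 except that the 1 lower was also reached without wild-type replicate 1 or 2. The normalized values, the filter and the probes were kept as they were in those fits. A fit with the BeadChip as block could not be made, since the headers name no slide, and was not run.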

Other observations

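Several Nduf genes had more than 1 kept probe, and the second probes, which the counts above do not use, gave further values. In 14 of 15 such genes all kept probes had the same sign, and none had probes called in opposite directions. For Ndufa5 the dimmer probe rose by 0.62 against 0.41 for the brighter one. The dimmer Ndufaf5 probe had a change of -0.68 (adjusted p = 0.0771) against -0.21 for the brighter one. The 4 kept Ndufs4 probes had changes of 0.30, 0.45, 0.31 and 0.44.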
